A study of Mus musculus with 10 samples.

Results

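The cytochrome P450 genes of drug and steroid metabolism were followed in the livers of mice with and without a working Scd1 gene. Scd1 encodes stearoyl-CoA desaturase 1, which makes monounsaturated fatty acids from saturated ones. Members were the probe sets with a single gene symbol of the P450 pattern (a family number, a subfamily letter and a gene number). Cyp4a10, Cyp4a14, Cyp7a1, Cyp7b1, Cyp27a1 and Cyp17a1 were left out by name. Of 44 probe sets with a P450 symbol, 6 listed several genes and 5 were left out by name, so 33 probe sets of 32 genes were followed, among 7417 genes with a probe set of a single symbol. Liver RNA came from 10 female mice, aged 6 weeks, fed chow and not fasted, and each mouse had an array of its own (Affymetrix MG_U74A, a 1-colour oligonucleotide array). The 5 Scd1 -/- mice (null 1 to null 5) had a background that mixed 129 with C57BL/6J, while pure C57BL/6J was given for the 5 Scd1 +/+ mice (WT 1 to WT 5). The Scd1 loss was not described in the labels as limited to any cell type, and the labels give no treatment.

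Cytochrome P450 enzymes are heme proteins of the endoplasmic reticulum and mitochondria that put an oxygen atom into drugs, toxins, steroids, bile acids, fatty acids, retinoids and vitamin D. Hepatocytes hold most of the drug-metabolising members, and electrons reach them from NADPH through P450 reductase and in part through cytochrome b5. Families are set by protein sequence, and several mouse subfamilies (Cyp2b, Cyp2c, Cyp2d, Cyp3a) are clusters of closely related copies. The nuclear receptors CAR (Nr1i3) and PXR (Nr1i2) and the aryl hydrocarbon receptor drive many of these genes, and growth hormone secretion makes some female-biased or male-biased in mouse liver.

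The genes on which the results turn were Cyp2a12, the only member called, the Cyp2b genes, which varied most between mice as a subfamily of several genes, and Cyp3a11 and Cyp3a16, which had 2 of the 3 most negative differences. The 250 bases before the RefSeq start of each (build GRCm38.p6, given 5′ to 3′ on the gene's own strand) are printed to show how alike the copies are. In Cyp2b9 (chr7:26173159-26173408, plus strand) and Cyp2b13 (chr7:26061245-26061494, plus strand) the capitals mark the only bases that differ.
Cyp2b9: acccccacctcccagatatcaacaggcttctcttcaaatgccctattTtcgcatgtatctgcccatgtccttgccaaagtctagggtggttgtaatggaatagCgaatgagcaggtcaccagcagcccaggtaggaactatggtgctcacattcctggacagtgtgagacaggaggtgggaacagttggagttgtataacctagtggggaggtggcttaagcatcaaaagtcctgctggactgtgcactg
Cyp2b13: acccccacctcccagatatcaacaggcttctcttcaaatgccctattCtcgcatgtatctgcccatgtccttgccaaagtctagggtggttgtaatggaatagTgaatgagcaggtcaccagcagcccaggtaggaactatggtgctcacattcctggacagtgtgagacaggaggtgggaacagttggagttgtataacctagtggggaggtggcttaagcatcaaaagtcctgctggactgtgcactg
These were identical at 248 of 250 bases (99.2%). From Cyp2b9 to Cyp2b13 the substitutions were T48C and C104T, counted from 1 at the 5′ end of the printed run. The matching stretch of Cyp2b10 (chr7:25897408-25897657, plus strand), printed with no capitals, was identical to that of Cyp2b9 at 182 of 240 aligned bases (75.8%).
Cyp2b10: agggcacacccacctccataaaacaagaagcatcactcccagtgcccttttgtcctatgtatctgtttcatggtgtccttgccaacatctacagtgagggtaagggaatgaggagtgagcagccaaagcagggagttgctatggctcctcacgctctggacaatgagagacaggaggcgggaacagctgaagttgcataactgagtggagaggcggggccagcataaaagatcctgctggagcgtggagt
In the next 3 runs the capitals mark the letters TATAAA and CAAAGTCCA (a motif of the hepatocyte factor HNF4), searched on both strands. TATAAA starts at base 17 of the run in Cyp3a11, 125 in Cyp3a16 and 212 in Cyp2a12, and only the last is close to the gene's start, where a TATA box lies. Cyp3a11 lies at chr5:145879855-145880104 and Cyp3a16 at chr5:145469724-145469973, both on the minus strand, and Cyp2a12 at chr7:27028840-27029089 on the plus strand.
Cyp3a11: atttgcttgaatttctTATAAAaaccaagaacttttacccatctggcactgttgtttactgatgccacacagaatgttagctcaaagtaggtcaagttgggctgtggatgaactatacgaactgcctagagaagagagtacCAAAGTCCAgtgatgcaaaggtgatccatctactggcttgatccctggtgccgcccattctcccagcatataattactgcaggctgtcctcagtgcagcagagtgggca
Cyp3a16: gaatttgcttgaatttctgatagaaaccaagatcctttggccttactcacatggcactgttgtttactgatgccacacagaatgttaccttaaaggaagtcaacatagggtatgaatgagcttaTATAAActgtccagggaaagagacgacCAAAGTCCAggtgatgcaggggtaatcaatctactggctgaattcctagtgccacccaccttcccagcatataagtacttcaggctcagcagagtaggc
Cyp2a12: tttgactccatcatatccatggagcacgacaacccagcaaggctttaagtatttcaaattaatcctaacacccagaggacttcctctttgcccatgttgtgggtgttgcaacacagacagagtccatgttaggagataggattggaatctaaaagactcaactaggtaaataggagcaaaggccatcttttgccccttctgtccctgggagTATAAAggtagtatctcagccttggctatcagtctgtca
The Cyp3a11 and Cyp3a16 runs were identical at 199 of 239 aligned bases (83.3%), and both held each motif. Of the 29 member genes found in the RefSeq promoter table, TATAAA was present in 13 and CAAAGTCCA in 4 (Cyp2c70, Cyp3a11, Cyp3a16 and Cyp8b1). Over all 32851 promoter entries of that table, in the same window of 250 bases, the shares were 12.4% and 0.384%. Those shares count entries, while the 29 member genes, with 32 entries, were counted by gene if any entry held the letters. The motifs share no stretch of letters that could count for both. A match of letters is a description and does not show a bound site.

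Array values are quantile-normalized intensities, a relative scale on which levels of different probe sets cannot be set against each other. Values under a floor of 351 (the 25th percentile of all values) were raised to it before log2, and probe sets had to exceed it on 5 or more of the 10 arrays. This kept 7569 of 9977 probe sets, among them 29 of the 33 P450 probe sets, which represent 28 genes. Median intensity per array before normalization was 828 to 860 for the null and 786 to 845 for the wild-type mice. Scd1 fell by 5.28 and fell by 5.18 (log2) in the null mice at 2 of its 3 probe sets (limma, adjusted p = 4.31e-08 and 1.19e-06). The third differed by 0.07 (limma, adjusted p = 0.714). With the floor at the 10th percentile that probe set differed by 0.25 (limma, adjusted p = 0.362), so its value depended on the floor. WT 4 stood apart from the other arrays along the second principal component, which held 15% of the variance, and the deposited files held a remark of evaporation and an inaccurate amount of cRNA for WT 3. Strain background and chip lot divided the mice exactly as genotype did, so these cannot be told apart in any difference given here. The fluidics run, a hybridisation batch, held null 1 to null 4 in run 1, null 5 with WT 1 to WT 3 in run 2, and WT 4 and WT 5 in run 3. All 5 hepatocyte markers measured were kept and 0 were called by limma (0 at an unadjusted p under 0.05), but Alb, at the second rank on 9 of 10 arrays, is fixed there by quantile normalization and cannot show a change. The other 4 had a summed intensity of 46406 to 59422 in the null and 46309 to 60909 in the wild-type mice. Most of that range came from Apoa1, which ran from 1518 to 11848 in the null and from 1367 to 16361 in the wild-type mice. Over 10 lists of markers of other cell types, 19 genes were kept, 0 were called by limma and 2 had an unadjusted p under 0.05, and in a further list, of steroid-making cells, Mc2r was called lower (given with the steroid enzymes). In whole liver, fewer cells of a type and less RNA per cell cannot be told apart.

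The comparison asked which of these enzymes are expressed differently when Scd1 is lost. Across the P450 set as a whole little passed the test. Only Cyp2a12 was called higher in the null mice and 0 probe sets were called lower, which is 1 of 29 kept probe sets (3.45%), by limma with Benjamini-Hochberg adjustment over all 7569 probe sets at a threshold of 0.05. Over all kept probe sets 6.33% were called, 3.57% higher and 2.76% lower, so the P450 share was no larger than the background. The deposited scale, without quantile normalization, called 480 probe sets higher and 96 lower, against 270 and 209 after it. At an unadjusted p under 0.05 there were 3 P450 probe sets (10.3%, Cyp2a12, Cyp8b1 and Cyp3a16) against 26.0% of all. On the deposited scale these counts were 10 of 29 P450 probe sets and 2013 of all 7561, so the lower P450 share depended on the scaling. The null and wild-type values did not overlap for 1 P450 probe set, Cyp2a12, against 8.13% of all kept probe sets (4.03% higher in the null mice). Differences (null minus wild type, log2) ran from -0.75 for Cyp2b13 to 0.34 for Cyp26a1, with 16 above 0 and 13 below. Their median was 0.05, against -0.02 over all probe sets, and the median size without sign was 0.12 against 0.15.

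A miss of the threshold does not show equal expression, so the 95% intervals matter. For 22 of the 29 P450 probe sets the interval lay within 1.5-fold in either direction (78.5% of all probe sets did). The 7 whose interval reached past 1.5-fold were Cyp2b9, Cyp2b10, Cyp2b13, Cyp2e1, Cyp2j5, Cyp3a16 and Cyp26a1, and for Cyp2b13 and Cyp2e1 it reached past 2-fold. Of the 33 probe sets, 4 could not be tested because they lay mostly under the floor. Cyp1b1, a hydroxylase of oestrogens and polycyclic hydrocarbons, lay above it on 1 array, and Cyp11a1, the mitochondrial enzyme that opens steroid synthesis from cholesterol, on 3. Cyp2j6, a fatty acid epoxygenase, and Cyp24a1, which inactivates vitamin D, lay above it on 0 arrays.

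**Figure D1:**
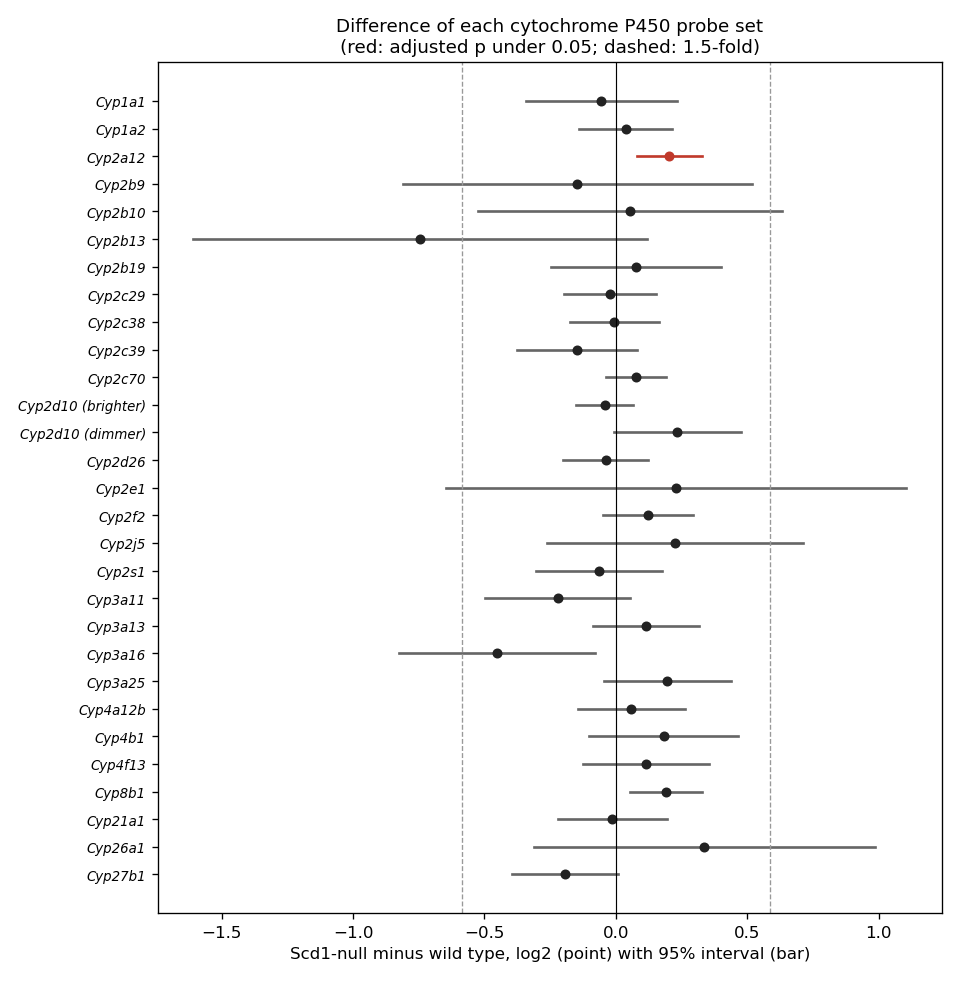
Difference between Scd1-null and wild-type mice (5 each) for the 29 kept cytochrome P450 probe sets, as null minus wild type on the log2 scale (horizontal axis), with points for the estimate and bars for the 95% interval from limma. Dashed lines mark 1.5-fold, and Cyp2a12, in red, is the only one with an adjusted p under 0.05. The widest bars belong to Cyp2e1 and Cyp2b13.

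Cyp2a12, a steroid hydroxylase of mouse liver, was the member that rose. Its intensity was 13458, 12751, 13878, 13282 and 12579 in null 1 to null 5. In WT 1 to WT 5 it was 11885, 10736, 11253, 11207 and 12191. Every null value lay above every wild-type value, with means of 13190 ± 529 and 11454 ± 580 (SD, n = 5 each). The difference was 0.20 (SE 0.06, 95% interval 0.08 to 0.33, adjusted p = 0.0499 by limma), or 1.15-fold. The exact two-sided permutation test gave p = 0.00794, the smallest that 5 against 5 arrays can give. After quantile normalization mice of the same genotype were alike here. The residual SD was 0.07 on the log2 scale, at the 1.47th percentile of all kept probe sets. On the deposited scale the SE of the difference was 0.09. The adjusted p lay just under the threshold, and the call was lost when any one of null 1 to null 5, WT 1, WT 2 or WT 3 was left out (adjusted p = 0.0737 to 0.105), while without WT 4 or without WT 5 it was kept (0.0444 and 0.0421). With fluidics run as a block, where only null 5 meets WT 1 to WT 3 in a shared run, the difference was 0.16 (adjusted p = 0.495), and on the deposited scale it was 0.42 (adjusted p = 0.0191).

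**Figure D2:**
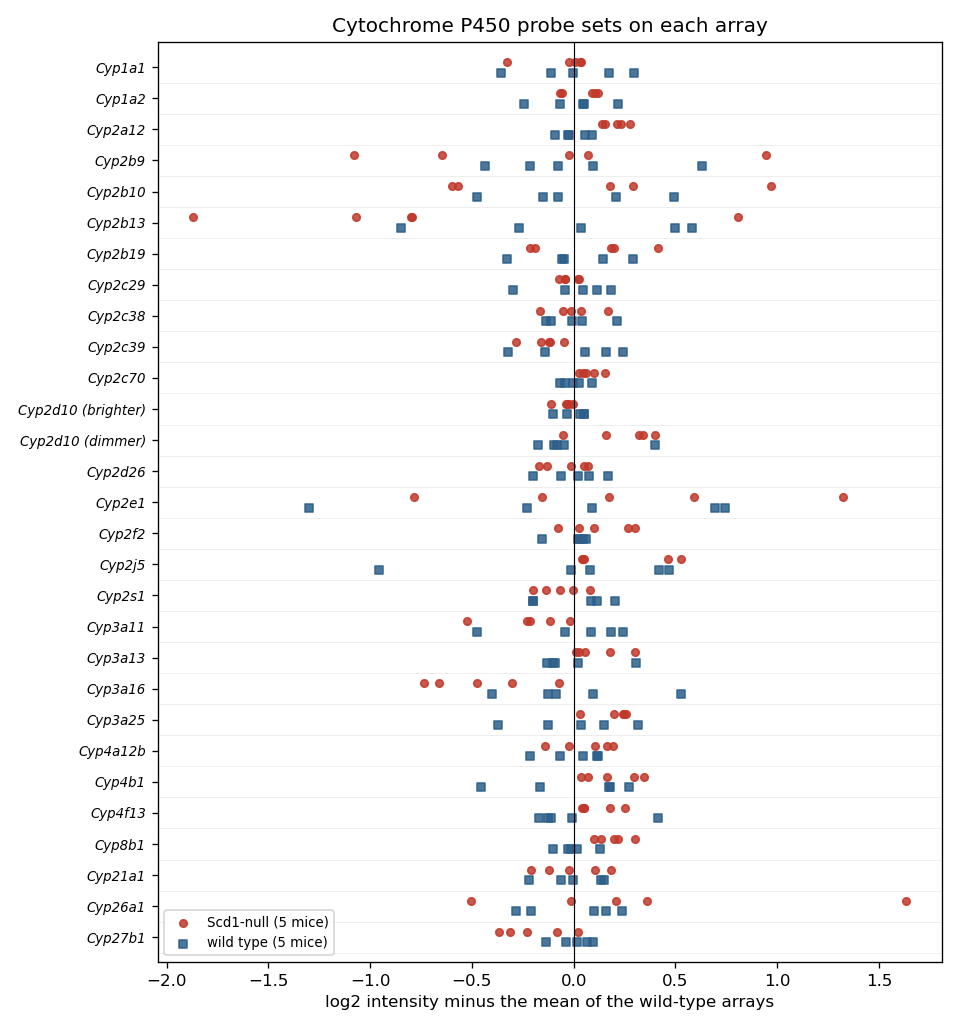
Intensity of each kept cytochrome P450 probe set on each array, as log2 intensity (after the floor) minus the mean of the 5 wild-type arrays (horizontal axis), with red circles for null mice and blue squares for wild-type mice. For Cyp2a12 the circles and squares are apart. For Cyp2b9, Cyp2b10, Cyp2b13, Cyp2e1 and Cyp26a1 the mice of each genotype are spread widely and the groups overlap.

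The Ahr-driven family showed no call. Cyp1a2, which oxidises caffeine and aromatic amines in pericentral hepatocytes, was at 15366, 13493, 13578, 15185 and 15044 in null 1 to null 5. In WT 1 to WT 5 it was at 11939, 14671, 16433, 13493 and 14582, so the wild-type range enclosed the null range. The difference was 0.04 (SE 0.08, 95% interval -0.14 to 0.21, adjusted p = 0.805), and on the deposited scale it was 0.25 (adjusted p = 0.152). Cyp1a1, the hydroxylase of polycyclic hydrocarbons that Ahr ligands induce, stayed near the floor, at 362 to 465 in the null and 354 to 558 in the wild-type mice, with a difference of -0.06 (adjusted p = 0.820). With Cyp1b1 under the floor, 0 of the 2 tested Ahr-driven P450 genes were called by limma (0 at an unadjusted p under 0.05).

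The Cyp2b subfamily varied widely between mice of the same genotype, and 0 of its 4 members were called by limma (0 at an unadjusted p under 0.05). Cyp2b10 is the classical phenobarbital-induced target of CAR, Cyp2b9 and Cyp2b13 are female-predominant relatives, and Cyp2b19 is known as an arachidonic acid epoxygenase of mouse keratinocytes. Of these, Cyp2b9 is given array by array by the rule (the brightest of its subfamily), and Cyp2b10 and Cyp2b13 because their spread was seen. Cyp2b9 intensity was 8392, 2789, 4290, 4581 and 2067 in null 1 to null 5, and 3229, 6756, 3754, 4141 and 4662 in WT 1 to WT 5. Null 1 held the highest value of all 10 mice and null 5 the lowest, and the null mice spanned 4.06-fold against 2.09-fold in the wild-type mice. The genotype difference was -0.15 (SE 0.31, 95% interval -0.81 to 0.52, adjusted p = 0.792).

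Cyp2b10 followed the same order of mice at both ends. It was at 7807, 2692, 4523, 4886 and 2634 in null 1 to null 5, and at 2871, 5621, 3786, 3596 and 4617 in WT 1 to WT 5. Null 1 was again the highest and null 5 the lowest, and the null range (2.96-fold) enclosed the wild-type range (1.96-fold). The difference was 0.05 (SE 0.27, 95% interval -0.52 to 0.63, adjusted p = 0.919). Over the 5 null mice the log2 SD was 0.77 for Cyp2b9 and 0.66 for Cyp2b10, but 0.18 for the difference between them. In the wild-type mice these SDs were 0.40, 0.37 and 0.12. The ratio of the 2 probe sets thus varied far less from mouse to mouse than either probe set did. Probes for such similar copies can bind each other's RNA, and the part of this in the shared pattern was not tested.

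Cyp2b13 was the member with the largest difference, and it did not pass the test. Its intensity was 7347, 2410, 2423, 1997 and 1149 in null 1 to null 5, and 2334, 5927, 4310, 6279 and 3486 in WT 1 to WT 5. In the null mice 4 of 5 values lay at or below 2423, while null 1 exceeded every wild-type mouse. The difference was -0.75 (SE 0.40, 95% interval -1.61 to 0.12, adjusted p = 0.254). Without null 1 it was -1.13 (SE 0.29, adjusted p = 0.0550) and without null 5 it was -0.46 (adjusted p = 0.488), so either mouse moved the estimate by over 1.5 times, and neither made it a call. Over the 10 fits that left out an array, Cyp2b9 ran from -0.42 to 0.09 and Cyp2b10 from -0.17 to 0.22. With run as a block, which rests on null 5, the lowest null mouse, the differences were -1.07 for Cyp2b9, -0.58 for Cyp2b10 and -1.77 for Cyp2b13 (adjusted p = 0.320, 0.577 and 0.247), and the sign of Cyp2b10 was turned. Cyp2b13 shared less with Cyp2b9 than Cyp2b10 did: the log2 SD of their difference was 0.44 in the null and 0.45 in the wild-type mice. The log2 SD of Cyp2b13 itself was 0.97 and 0.59. The 250 bases before the starts of Cyp2b9 and Cyp2b13 differ at only 2, and a link between these bases and the shared pattern was not tested. Cyp2b19 ran at 663 to 1027 in the null and 613 to 944 in the wild-type mice, with a difference of 0.08 (adjusted p = 0.772), and the log2 SD of its difference from Cyp2b9 was 0.87 and 0.54.

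**Figure D3:**
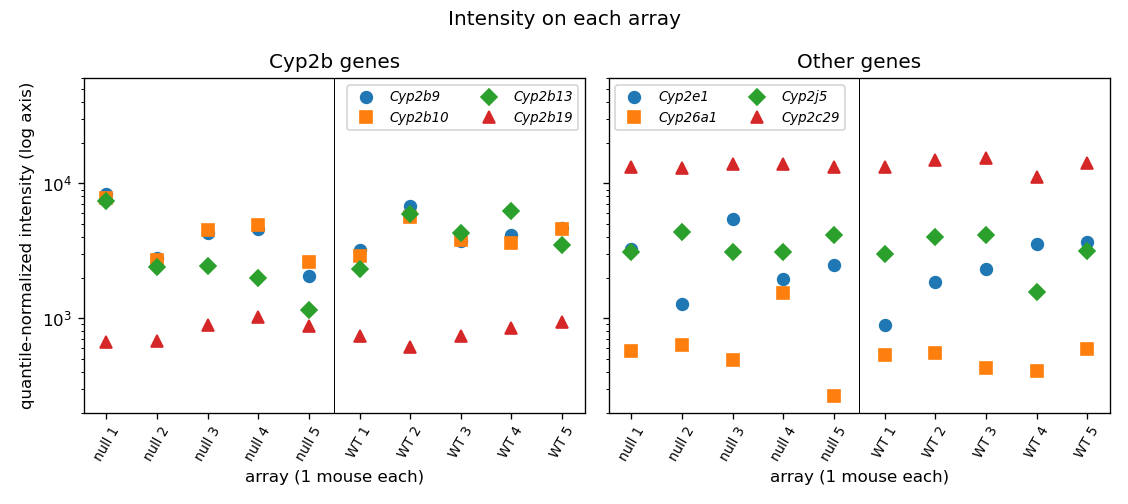
Quantile-normalized intensity (vertical, log axis) on each array, 1 mouse each, for the Cyp2b genes (left) and for Cyp2e1, Cyp26a1, Cyp2j5 and Cyp2c29 (right), with the null mice left of the line in each panel. Cyp2b9 and Cyp2b10 are both highest in null 1 (8392 and 7807) and both lowest in null 5 (2067 and 2634), while Cyp2c29 varies little among the null mice.

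None of the 4 Cyp2c genes was called, and all 4 intervals lay within 1.5-fold. Cyp2c70, which makes the muricholic bile acids of mice, was at 16897, 18447, 17160, 17301 and 17799 in null 1 to null 5 and at 16897, 15824, 16122, 16589 and 17673 in WT 1 to WT 5. The groups overlapped, and the difference was 0.08 (SE 0.05, 95% interval -0.04 to 0.19, adjusted p = 0.373), with a residual SD at the 0.806th percentile. Cyp2c29, a CAR-induced epoxygenase of arachidonic acid, ran from 13030 to 13947 in the null and from 11119 to 15537 in the wild-type mice (difference -0.02, adjusted p = 0.890). Cyp2c38 ran from 13878 to 17491 and from 14198 to 18068 (-0.01, adjusted p = 0.970). Cyp2c39, a relative that can oxidise retinoic acid, ran from 2142 to 2526 and from 2091 to 3091 (-0.15, adjusted p = 0.396). On the deposited scale Cyp2c70, Cyp2c29, Cyp2c38 and Cyp2c39 differed by 0.27, 0.20, 0.21 and -0.03 (limma, adjusted p = 0.0774, 0.131, 0.148 and 0.858). All 4 lie on chromosome 19, as does Scd1, with 61 to 71 protein-coding genes of the GRCm38.p6 gene table between them and Scd1, and so does Cyp26a1, with 88 between. None of these 5 was called by limma (0 at an unadjusted p under 0.05). The mixed background of the null mice, in which 129 sequence can remain around an altered allele, cannot be told apart from genotype there.

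Both Cyp2d genes, mouse relatives of the human drug-oxidising enzyme CYP2D6, were bright, and the 2 probe sets of Cyp2d10 did not give the same picture. The brighter was at 24229, 24719, 22972, 24374 and 24121 in null 1 to null 5 and at 25723, 24229, 23091, 25723 and 25341 in WT 1 to WT 5, a difference of -0.04 (SE 0.05, adjusted p = 0.625). The dimmer was at 17160, 16227, 12537, 14516 and 16488 in null 1 to null 5, and at 12173, 11506, 12579, 17160 and 12286 in WT 1 to WT 5, a difference of 0.23 (SE 0.11, 95% interval -0.01 to 0.48, adjusted p = 0.204). In the dimmer probe set 4 null mice exceeded 4 wild-type mice, and WT 4 equalled the highest null value. Without WT 4 its difference was 0.33 and passed the threshold (adjusted p = 0.0266). The brighter probe set carries the array maker's suffix for probes shared by several transcripts, so signal from other Cyp2d copies cannot be told apart there. The Cyp21a1 probe set carries the same suffix. Other suffixes of the maker mark the probe sets of Cyp2c38, Cyp4b1 and Cyp3a16. They also mark the called probe sets of Fech and Cyb5r1 and both probe sets of Cpox and Stat5a, called or not. Whether any of these probes bind other transcripts was not tested. Cyp2d26 ran from 16897 to 19964 in the null and from 16589 to 21371 in the wild-type mice (difference -0.04, adjusted p = 0.774).

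Cyp2e1, the ethanol and acetaminophen oxidase of pericentral hepatocytes, had the widest scatter beside Cyp2b13. It was at 3285, 1266, 5465, 1961 and 2462 in null 1 to null 5 and at 885, 1863, 2322, 3532 and 3655 in WT 1 to WT 5. The highest mouse exceeded the lowest by 4.32-fold among the null and 4.13-fold among the wild-type mice, and the groups overlapped almost wholly. The difference was 0.23 (SE 0.41, 95% interval -0.65 to 1.11, adjusted p = 0.754). It ran from -0.10 to 0.48 as single arrays were left out, below 0 without null 3 and without WT 1, and was 0.65 with run as a block (adjusted p = 0.666). Of 3 other pericentral markers (Glul, Oat and Lect2), 0 were called by limma and 0 had an unadjusted p under 0.05, with a summed intensity of 14044 to 18756 and 12977 to 19056.

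Cyp2f2, which activates naphthalene and is periportal in liver, was at 13374, 14086, 15824, 12463 and 16227 in null 1 to null 5. In WT 1 to WT 5 it was at 13578, 13700, 11795, 13346 and 13458, so 4 wild-type mice were close together and WT 3 was low. The difference was 0.12 (SE 0.08, 95% interval -0.05 to 0.29, adjusted p = 0.340). Among 4 other periportal markers Hal, which opens histidine breakdown, rose by 0.45 (adjusted p = 0.0421), and Arg1, Ass1 and Cps1 differed by 0.03, -0.02 and 0.01 (adjusted p = 0.757, 0.923 and 0.952), with a summed intensity of 55332 to 60291 in the null and 54140 to 55981 in the wild-type mice. Their part in the Cyp2f2 values was not tested. The Hal call was kept in 2 of 10 fits that left out an array (without WT 4 and without WT 5).

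Cyp2j5, an arachidonic acid epoxygenase of liver and kidney, was at 3091, 4336, 3112, 3108 and 4152 in the null and at 2982, 4024, 4165, 1552 and 3177 in the wild-type mice, in order of number. WT 4 was the lowest of all 10. The difference of 0.23 (SE 0.23, adjusted p = 0.552) went to -0.01 without WT 4. Cyp2s1, an epithelial P450, lay near the floor, at 367, 314, 385, 426 and 402 in the null and 427, 347, 436, 463 and 55 in the wild-type mice. It exceeded the floor on 7 arrays. The difference was -0.06 (adjusted p = 0.748) with WT 5 raised to the floor and turned to 0.15 (adjusted p = 0.767) with a floor at the 10th percentile, so no direction can be read from it.

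In the Cyp3a subfamily the difference was below 0 for Cyp3a11 and Cyp3a16 and above 0 for Cyp3a13 and Cyp3a25, and 0 of 4 were called by limma (1 at an unadjusted p under 0.05). Cyp3a11, a main drug-oxidising enzyme of mouse liver and a target of PXR, was at 14671, 20850, 18156, 17973 and 19475 in null 1 to null 5. In WT 1 to WT 5 it was at 23995, 22417, 20508, 15185 and 24988. In the wild-type mice 3 values lay above every null value, and WT 4 lay below 4 of the 5 null values. The difference was -0.22 (SE 0.13, 95% interval -0.50 to 0.05, adjusted p = 0.288), and without WT 4 it was -0.34 (SE 0.09, adjusted p = 0.0349), which passed the threshold, while without null 1 it was -0.15 (adjusted p = 0.518). On the deposited scale it was -0.06 (adjusted p = 0.773).

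Cyp3a16, known in mice as a fetal and female-biased member, is given by array because its unadjusted p was under 0.05. It was at 374, 563, 356, 426 and 480 in null 1 to null 5 and at 543, 632, 558, 448 and 853 in WT 1 to WT 5, so most values lay only a little above the floor. The groups overlapped through null 2, null 5, WT 1, WT 3 and WT 4. The difference was -0.45 (SE 0.17, 95% interval -0.82 to -0.08, adjusted p = 0.122, exact permutation p = 0.0556), and without WT 4 it was -0.55 (adjusted p = 0.05004). Cyp3a13, a member of liver and intestine, ran from 4655 to 5677 in the null and from 4210 to 5701 in the wild-type mice (0.11, adjusted p = 0.462). Cyp3a25 ran from 3420 to 3998 and from 2587 to 4162 (0.20, adjusted p = 0.287).

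The fatty acid hydroxylases of family 4 did not pass the test. Cyp4a12b, a male-biased arachidonic acid hydroxylase, was at 2014, 2543, 2386, 2189 and 2487 in null 1 to null 5 and at 2416, 2297, 2406, 2123 and 1912 in WT 1 to WT 5, with a difference of 0.06 (SE 0.09, adjusted p = 0.725). Cyp4b1, known for oxidising furan toxins, was at 2841, 2353, 2746, 2505 and 2295 and at 2700, 2528, 1633, 2526 and 1992, with a difference of 0.18 (SE 0.13, adjusted p = 0.398). The groups overlapped for both. Cyp4f13, of a subfamily that hydroxylates leukotrienes and other fatty acids, was at 2356, 2049, 2047, 2033 and 2233 and at 1811, 1758, 1964, 2634 and 1828. Here every null mouse lay above 4 of the wild-type mice, and WT 4 was the highest of all 10. The difference was 0.12 (SE 0.11, adjusted p = 0.537), and 0.22 without WT 4 (adjusted p = 0.0946).

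Among the enzymes of bile acids, steroids, retinoids and vitamin D, Cyp8b1 came closest to a call. Cyp8b1 is the sterol hydroxylase that directs bile acid synthesis toward cholic acid. It was at 9001, 9150, 9695, 8620 and 8412 in null 1 to null 5 and at 7314, 7933, 7701, 8603 and 7783 in WT 1 to WT 5. Apart from WT 4, every wild-type mouse lay below every null mouse. The difference was 0.19 (SE 0.06, 95% interval 0.05 to 0.33, adjusted p = 0.0848, exact permutation p = 0.0159). It passed the threshold without WT 4 (0.22, adjusted p = 0.0333), with arrays weighted by quality (0.20, adjusted p = 0.0436) and on the deposited scale (0.37, adjusted p = 0.0391). With run as a block the difference was 0.14 (adjusted p = 0.583). With replicate number as a block the adjusted p was 0.163, and as single arrays were left out it reached 0.171.

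Cyp26a1, which degrades retinoic acid, had the largest positive difference through a single mouse. It was at 575, 638, 494, 1546 and 265 in null 1 to null 5 and at 533, 556, 430, 409 and 587 in WT 1 to WT 5. Null 4 was far above the rest and null 5 fell below the floor, so the null mice held both the highest and the lowest value. The difference was 0.34 (SE 0.30, 95% interval -0.31 to 0.98, adjusted p = 0.505), it ranged from 0.01 to 0.55 as single arrays were left out, and with run as a block it was -0.52 (adjusted p = 0.643).

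Cyp27b1, which activates vitamin D and is best known from kidney, was at 1505, 1563, 1974, 1837 and 1659 in null 1 to null 5 and at 1965, 2078, 2031, 1894 and 1767 in WT 1 to WT 5. The null mice tended lower with overlap, and the difference was -0.19 (SE 0.09, adjusted p = 0.207). Cyp21a1, the adrenal steroid hydroxylase, was at 3134, 2948, 3871, 3675 and 3360 and at 3266, 3410, 2932, 3790 and 3742, a difference of -0.01 (SE 0.10, adjusted p = 0.943). Of 4 markers of steroid-making cells, 3 were kept (Star, Nr5a1 and Mc2r), and Hsd3b1 lay under the floor. Their summed intensity was 12109 to 13950 in the null and 13163 to 15515 in the wild-type mice. Most of it came from the brightest Nr5a1 probe set (9828 to 11352 and 10403 to 12382). This probe set differed by -0.17 (limma, adjusted p = 0.143), and the other kept Nr5a1 probe sets by -0.20, -0.11 and 0.04. Mc2r fell by 0.50 (adjusted p = 0.0338). The Mc2r call was kept only without null 4 and without WT 4 when single arrays were left out. By limma, 2 of the kept markers (Nr5a1 and Mc2r) had an unadjusted p under 0.05. The part of these marker genes in the steroid enzymes' values was not tested.

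The P450 genes differed from one another in their spread between mice of the same genotype. The median residual SD of the 29 probe sets, 0.17 on the log2 scale, was close to the 0.18 of all kept probe sets, but 6 lay above the 95th percentile of all probe sets (0.39). These were Cyp2b9, Cyp2b10, Cyp2b13, Cyp2e1, Cyp2j5 and Cyp26a1. Another 4 lay under the 5th percentile (0.09), namely Cyp2a12, Cyp2c70, Cyp8b1 and the brighter Cyp2d10 probe set, and these 4 were bright. Residual SD also falls with intensity over all probe sets, as the plot of spread against level shows. Quantile normalization can hold values near the top ranks close, as for Alb. The brighter Cyp2d10 probe set had 25723 in WT 1 and in WT 4, and 24229 in null 1 and in WT 2. On the deposited scale the SE of the difference was 0.09, 0.09, 0.10 and 0.08 for Cyp2a12, Cyp2c70, Cyp8b1 and the brighter Cyp2d10 probe set. After quantile normalization it was 0.06, 0.05, 0.06 and 0.05. The part of the normalization in the low spread was not tested.

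**Figure D4:**
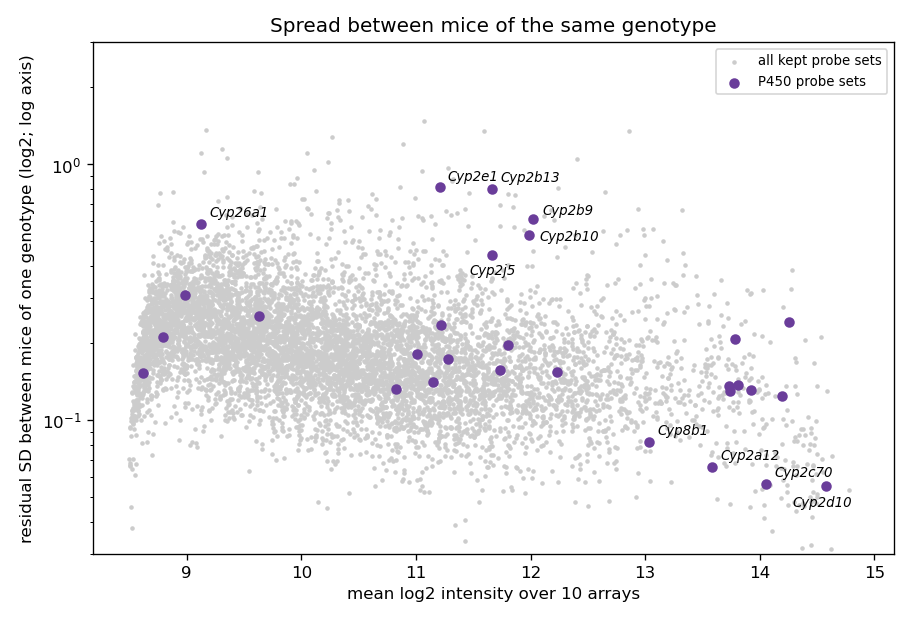
Residual SD between mice of the same genotype (vertical, log axis, in log2 units) against mean log2 intensity over the 10 arrays (horizontal) for all 7569 kept probe sets (grey) and the 29 P450 probe sets (purple). The named genes lie above the 95th percentile (0.39) or under the 5th (0.09) of all probe sets.

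The P450 genes were also grouped by what is known of their regulation. Of 4 tested female-biased members (Cyp2b9, Cyp2b10, Cyp2b13 and Cyp3a16), 0 were called by limma and 1 had an unadjusted p under 0.05, with a median difference of -0.30 against -0.02 over all probe sets. Of 5 targets of CAR and PXR (Cyp2b9, Cyp2b10, Cyp2c29, Cyp3a11 and Cyp3a13), 0 were called and 0 had an unadjusted p under 0.05 (median -0.02). The same counts held for 4 pericentral members (Cyp1a2, Cyp2c29, Cyp2e1 and Cyp3a11, median 0.01). Outside the P450 genes, 1 of 2 tested male-biased genes was called by limma (6.33% of all kept probe sets were), and 2 had an unadjusted p under 0.05 (26.0% of all). The called gene was Gstp1, a glutathione transferase, which rose by 0.37 (adjusted p = 0.0464). Its call was kept in only 1 of 10 fits that left out an array, that without WT 2. Hsd3b5, a male-biased steroid reductase, ran from 463 to 5715 in the null and from 295 to 2957 in the wild-type mice (1.44, SE 0.64, adjusted p = 0.174). Of 2 tested female-biased non-P450 genes 0 were called by limma (0 at an unadjusted p under 0.05).

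The partners that feed P450 enzymes with electrons and heme included 3 called genes of 13 kept, 2 higher and 1 lower, where 6.33% of all kept probe sets were called. Cyb5a, microsomal cytochrome b5, was at 16945 to 19964 in the null and 14138 to 16778 in the wild-type mice, with no overlap, a rise of 0.26 (SE 0.07, adjusted p = 0.0356). Fech, which inserts iron into heme, was at 1907 to 2496 and 1396 to 1808, also apart, a rise of 0.43 (SE 0.10, adjusted p = 0.0252). Cyb5r1, a cytochrome b5 reductase, was at 766 to 1214 and 1275 to 1728, a fall of 0.52 (log2 difference -0.52, SE 0.13, adjusted p = 0.0363). Each of these calls was lost in most fits that left out 1 array. The Cyb5a call was kept without null 3, WT 4 or WT 5 (adjusted p elsewhere up to 0.0944), that of Fech without null 3, null 4, WT 4 or WT 5 (up to 0.0721), and that of Cyb5r1 without null 5, WT 4 or WT 5 (up to 0.0894). With run as a block their differences were 0.27, 0.55 and -0.37 (adjusted p = 0.300, 0.189 and 0.453). Alas1, the first and rate-limiting enzyme of heme synthesis, ran from 4619 to 14724 in the null and from 6893 to 18830 in the wild-type mice (-0.65, SE 0.33, adjusted p = 0.231), and its sign turned with run as a block (0.16, adjusted p = 0.922). The brightest probe set of Cpox, a later heme enzyme, gave 0.23 (adjusted p = 0.225), and its second probe set was called at 0.38 (adjusted p = 0.0351), a call kept without null 3, WT 1, WT 4 or WT 5 (elsewhere adjusted p up to 0.0954) and lost with run as a block (0.31, adjusted p = 0.436). The median over the 13 genes was 0.01. The P450 reductase gene Por was not analysed here.

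Of 12 kept receptors and transcription factors that drive liver P450 genes, 0 were called by limma and 5 had an unadjusted p under 0.05 (median difference -0.07). Over all kept probe sets 26.0% had such a p. Besides Nr1i2 these were Onecut1 (-0.89, adjusted p = 0.117), Cebpa (-0.23, 0.0760), Ghr (0.27, 0.0828) and Arnt (0.22, 0.176). Nr1i2, which encodes PXR, was at 526 to 695 in the null and 724 to 942 in the wild-type mice, with no overlap, and its difference of -0.38 (SE 0.12) missed the threshold (adjusted p = 0.0697). Nr1i3, which encodes CAR, differed by -0.06 (adjusted p = 0.645) and Hnf4a by 0.13 (adjusted p = 0.222). Stat5a, a signal carrier of growth hormone, gave -0.08 with the brightest of its probe sets (adjusted p = 0.667) and was called lower with the second (-0.41, adjusted p = 0.0385), a call kept in 1 of 10 fits that left out an array (that without WT 4, elsewhere adjusted p up to 0.0996) and lost on the deposited scale (adjusted p = 0.0700) and with run as a block (-0.37, adjusted p = 0.319). The aryl hydrocarbon receptor gene was not analysed here. Of 6 other phase I enzymes, 0 were called by limma and 1 had an unadjusted p under 0.05, as was true of the 4 other CAR and PXR targets. The single tested other Ahr target, Nqo1, a quinone reductase, differed by -0.19 (adjusted p = 0.411).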

How the data were processed

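Liver RNA of 5 Scd1-null and 5 wild-type mice was measured on 10 arrays, and replicates are mice. The authors deposited linear intensity values of 10043 probe sets. How probes were summarised into these intensity values, whether they were scaled, and the genome build are not stated (not given in the sources used here). Trimmed means (2% at each end) differed between arrays by up to 19.8% and 1.19% of values lay below 0, so 66 control probe sets were removed and the other 9977 were quantile normalized, floored at the 25th percentile (351) and taken to log2. Probe sets above the floor on at least 5 arrays were kept (7569). The floor can shrink, enlarge or turn differences of dim genes. Arrays give no counting depth, so the number of arrays limits the precision.

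Names came from the platform annotation: 8724 probe sets had a single symbol, 346 several and 907 none, and 8710 were matched by gene ID to RefSeq. Sequences are RefSeq's (GRCm38.p6), with 29 of 32 member genes found. The test was limma (3.58.1, under R 4.3.3, with lmFit and eBayes using an intensity trend, two-sided, on all 10 arrays with no covariate), adjusted by Benjamini-Hochberg over the kept probe sets. Single values were also tested by an exact two-sided permutation over all assignments of 5 of the 10 arrays. Tables were read and figures drawn with Python 3.11.15, pandas 2.3.3 and matplotlib 3.10.9. The fit was tested on simulated data.

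Every member is accounted for. Values by array are given for called members, for members whose groups do not overlap and for the brightest probe set of each subfamily, and other genes are named where called in a list or whether called or not (Cyb5a, Nr1i2, Nr1i3, Hnf4a and Alas1). Per-array values of Cyp2b10, Cyp2b13, Cyp3a16 and the dimmer Cyp2d10 probe set were added after they were seen. Onecut1, Cebpa, Ghr and Arnt were likewise named after their values were seen. A list takes each gene's brightest kept probe set. The members and lists were chosen with earlier results of these data known. The fluidics run was derived from hybridisation times in the deposited files, with a new run after a gap of over 1 hour. Alternatives were the deposited scale, other scalings, floors, filters and eBayes settings, a pseudocount, array weights, replicate number or run as a block, single runs, averaging the probe sets of a gene and each array left out.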

Additional observations from a re-analysis of the deposited data

Results flagged for a closer look

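In 5 of the 58 sets of 5 mice tested (each genotype for each kept P450 probe set), 1 array lay far from the other 4 by Dixon's criterion (gap over range above 0.71, on log2 values after the floor), and chance alone gives about 1 in 20. Cyp1a1 was 362 in null 3 against 447 to 465 in the other null mice. Cyp3a25 was 3420 in null 3 against 3835 to 3998. The dimmer Cyp2d10 probe set was 17160 in WT 4 against 11506 to 12579 in the other wild-type mice, and Cyp4f13 was 2634 in WT 4 against 1758 to 1964. Cyp2f2 was 11795 in WT 3, the array with the evaporation remark, against 13346 to 13700. Before the floor, Cyp2s1 was 55 in WT 5 against 347 to 463 in the other wild-type mice, and the floor removed that gap.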

How the results depend on the processing

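Over all alternatives, 716 values of single P450 probe sets were recomputed. Of these, 696 kept their side of the threshold, 15 lost the call (all Cyp2a12), 5 gained one (Cyp8b1 in 3, Cyp3a11 and the dimmer Cyp2d10 probe set in 1 each, without WT 4) and 0 called values changed sign. Cyp2a12 stayed higher in all 25 alternatives (0.16 to 0.42) but was called in 10, with adjusted p from 0.0191 to 0.495. The count of P450 probe sets called higher, 1, became 2 on the deposited scale and with array weights. It became 0 with the floor at the 10th percentile, without the intensity trend, with robust eBayes, with fluidics run as a block, within run 2 and in runs 1 and 3 alone (the last chosen after seeing the data). At an unadjusted p under 0.05 these 6 limma fits had 3, 3, 3, 3, 2 and 2 P450 probe sets. Other fits had more at that p: 10 of 29 on the deposited scale (2013 of 7561 over all) and 8 with 75th percentile scaling (2036 of 7564). Cyclic loess had 5 (1960 of 7571), array weights 7 (2364 of 7569) and the fit without WT 4 also 7 (2267 of 7569). The P450 share at that p thus depended on the scaling. Leaving out single arrays gave 0 to 3 higher (3 without WT 4) and 0 to 1 lower (1 without WT 4), against 0 lower. Over all probe sets, 270 higher and 209 lower became 480 and 96 on the deposited scale, 517 and 497 with array weights, 7 and 7 with run as a block, 0 and 1 within run 2 (1300 at an unadjusted p under 0.05), and 10 and 6 in runs 1 and 3 alone. Without the filter 152 were higher. Leaving out single arrays gave 102 to 491 higher and 62 to 449 lower, most without WT 4 and fewest without null 2. The run fits have fewer arrays to compare, and run 1 held only null mice and run 3 only wild-type mice. Lost precision and an effect of run cannot be told apart there. The cause of these and of the other changes was not tested. The remark on WT 3 was treated by leaving that array out. Of 29 P450 probe sets, 23 kept their sign on the deposited scale, where the P450 median was 0.20 and that of all probe sets 0.06, 25 with run as a block, 27 with cyclic loess and 25 with scaling to the 75th percentile.

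The replicate numbers are shared by the groups, but same-numbered arrays did not deviate together (correlations -0.127 to 0.108), and 1 of 5 null arrays correlated best with its own number. With the replicate number as a block, 0 P450 probe sets were called higher (3 at an unadjusted p under 0.05 by limma), and 151 higher and 68 lower over all probe sets.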
